A study of Mus musculus with 8 samples.

Results

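Cardiac myosin, the motor protein of the heart's thick filament, is described here through 8 genes: the heavy chains Myh6 and Myh7, the related heavy chain Myh7b, the light chains Myl2, Myl3, Myl4 and Myl7, and the kinase Mylk3. The members were chosen by gene name, as the rows of the deposited gene table that carry these symbols. All 8 were among the 30445 genes of the table, and all 8 passed the filter on low counts. Poly(A) RNA from hearts of C57 mice was sequenced 8 weeks after transverse aortic constriction (TAC), an operation that narrows the aorta and puts a pressure load on the left ventricle. One group of 4 libraries was wildtype and the other group of 4 was labelled Mertk knockdown, and all 8 came from operated hearts, so no unoperated heart was analysed here. MERTK is a receptor with which macrophages take up dying cells, and the series title places it in heart failure under pressure overload. The labels give neither how Mertk was lowered nor in which cells, and they do not say whether each replicate was a separate mouse, so the p-values measure the spread between libraries, part of which may be technical.

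Each myosin molecule of the thick filament holds a pair of heavy chains, which carry the ATPase and the actin-binding site, and every heavy chain binds an essential and a regulatory light chain at its neck. In the adult mouse ventricle the fast heavy chain alpha, from Myh6, predominates over the slow heavy chain beta, from Myh7, and a shift from alpha towards beta is a long-known response of the rodent heart to pressure overload. The ventricle uses the regulatory light chain from Myl2 and the essential light chain from Myl3, while the atria use those from Myl7 and Myl4, and MYLK3 is the cardiac kinase that phosphorylates the regulatory light chain.

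Across these hearts the wildtype libraries held less Myh6 and more Myh7 than the libraries labelled Mertk knockdown, with much variation inside each group. Myh6 did not overlap between the groups and Myh7 overlapped through 1 library. Neither heavy chain passed the test over all genes by edgeR, and no member did. The ventricular light chains and Mylk3 differed little, and the atrial light chains were high in 3 libraries that came from both groups.

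Total counts ran from 59287621 to 71571173 per library, and 26.92% to 32.44% of them fell on mitochondrial genes. Mertk itself had 11.05 ± 0.87 CPM (counts made comparable between libraries by their totals and TMM factors) in wildtype against 11.86 ± 0.951 CPM in the labelled libraries (SD, n = 4 each), for a log2 fold change of 0.10 (SE of 0.11, adjusted p = 0.7663 by edgeR). Since the transcript was not lower, that group is called by its label throughout. Of 17787 genes tested, 115 were called by edgeR at an adjusted p under 0.05. The 9 markers shared by all cardiomyocytes summed to 22200 to 28300 CPM and the 6 ventricular markers to 365 to 715 CPM, so the heart label held in every library. Hepatocyte markers (11 genes, among them Alb and Apoa1) summed to 252 CPM in wildtype library 1 and 200 to 254 CPM in the labelled libraries, against 51.7 to 55.6 CPM in the other 3 wildtype libraries. Such transcripts were thus high in 5 libraries, 1 wildtype and 4 labelled.

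The heavy chain genes Myh6 and Myh7 lie in tandem on the reverse strand of chromosome 14, on mm10 and in the coordinates of the deposited table. Myh6 (ENSMUSG00000040752) covers chr14:54941921-54966641 and Myh7 (ENSMUSG00000053093) covers chr14:54970684-54994626. Only 4042 bases separate the end of Myh7 from the start of Myh6. The antisense RNA gene Mhrt (ENSMUSG00000097652, chr14:54968678-54974349) is transcribed from that gap on the opposite strand and runs 3666 bases into Myh7, over 7 Myh7 exons. In GENCODE release M21 the coding transcripts used here have 39 exons for Myh6 and 41 for Myh7.

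**Figure D1:**
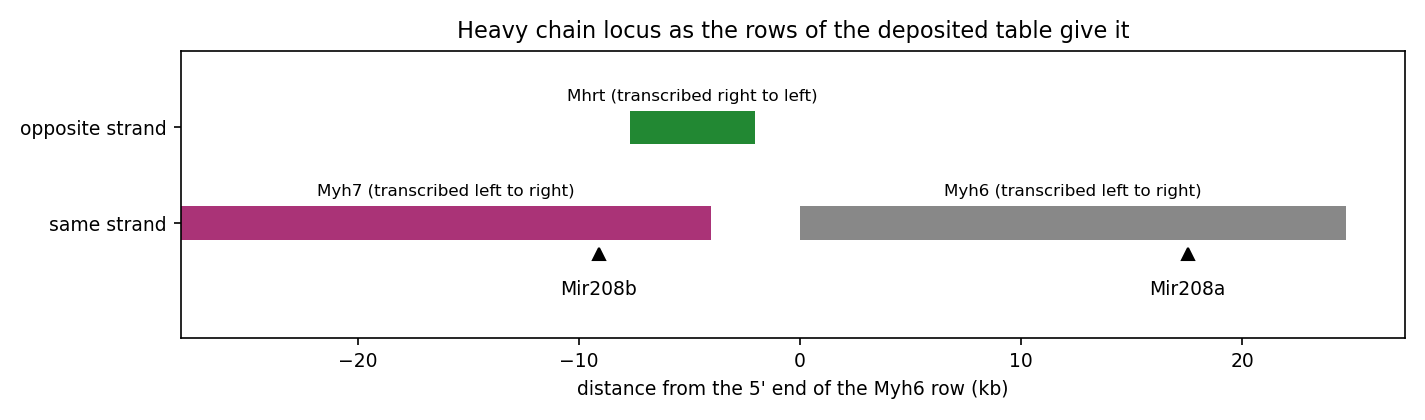
Heavy chain locus drawn from the rows of the deposited table, with the distance from the start of Myh6 in kb on the x axis and the strand relative to Myh6 on the y axis. Bars are gene rows and triangles are microRNA rows inside an intron, and Mhrt spans part of the 4042-base gap and the 3′ end of Myh7.

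Each of the 3 heavy chain genes carries a microRNA in an intron. Mir208a lies in intron 29 of Myh6, Mir208b in intron 31 of Myh7 and Mir499 in intron 19 of Myh7b, numbered in GENCODE M21. Their mature sequences are shown because they tie the 3 genes together: the microRNAs of Myh6 and Myh7 share their seed, the bases by which a microRNA recognises its targets. Sequences are from RefSeq on GRCm38.p6, the same assembly as mm10, 5′ to 3′, with the seed (bases 2 to 8) in capitals.
miR-208a-3p: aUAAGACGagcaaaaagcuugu
miR-208b-3p: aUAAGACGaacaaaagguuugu
miR-499-5p: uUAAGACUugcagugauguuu
The first lies at chr14:54949072-54949093 and the second at chr14:54975710-54975731, both on the reverse strand, and the third at chr2:155622893-155622913 on the forward strand. Between miR-208a-3p and miR-208b-3p there are 3 substitutions, G10A, A16G and C18U, counted from the 5′ end of miR-208a-3p, and all lie outside the seed. The seed of miR-499-5p is UAAGACU, against UAAGACG in the other two. Poly(A) libraries do not measure mature microRNAs, so counts in these rows come from longer RNA that crosses them.

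Because these heavy chain genes are close copies, their reads may be hard to assign. Over aligned coding bases Myh6 and Myh7 were 91.7% identical. Of all stretches of 50 coding bases in Myh6, 23.8% occurred in Myh7 letter for letter, as did 5.82% of stretches of 150 bases, the length of 1 read. The longest identical run was 245 bases long, coding bases 4246 to 4490 of Myh6 and 4240 to 4484 of Myh7, in the part that encodes the coiled-coil rod. It is shown because a read inside it matches either gene equally, although the other read of its pair may reach outside.
shared run: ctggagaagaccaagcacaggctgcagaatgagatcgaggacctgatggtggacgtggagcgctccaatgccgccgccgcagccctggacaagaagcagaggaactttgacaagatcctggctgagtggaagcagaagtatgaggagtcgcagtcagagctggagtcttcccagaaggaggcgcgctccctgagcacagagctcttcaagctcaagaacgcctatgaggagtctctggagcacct
How the authors' counting treated such reads was not given in the sources used here. Myh7b shares no stretch of 50 coding bases with either gene, at 71.5% identity with Myh6 and 72.1% with Myh7. The same holds for Myl2 against Myl7 (62.4% identity) and Myl3 against Myl4 (77.0%), so the atrial and ventricular light chains can be told apart read by read.

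Of the 8 members, 0 were called by edgeR, where 0.646% of all tested genes were called (0.276% higher and 0.371% lower in the labelled libraries). At an unadjusted p under 0.05 there were 2 members, Myh6 and Myh7, against 12.4% of all tested genes. DESeq2 called 1 member, Myh6, against 2.87% of the genes it gave an adjusted p. The groups did not overlap for 1 member, Myh6, where 8.07% of all tested genes had groups without overlap, 4.18% higher and 3.9% lower in the labelled libraries. Log2 fold changes were above 0 for 6 members and below 0 for 2, with a median of 0.17. Over all tested genes the median was 0.0 and 49.1% were above 0.

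**Figure D2:**
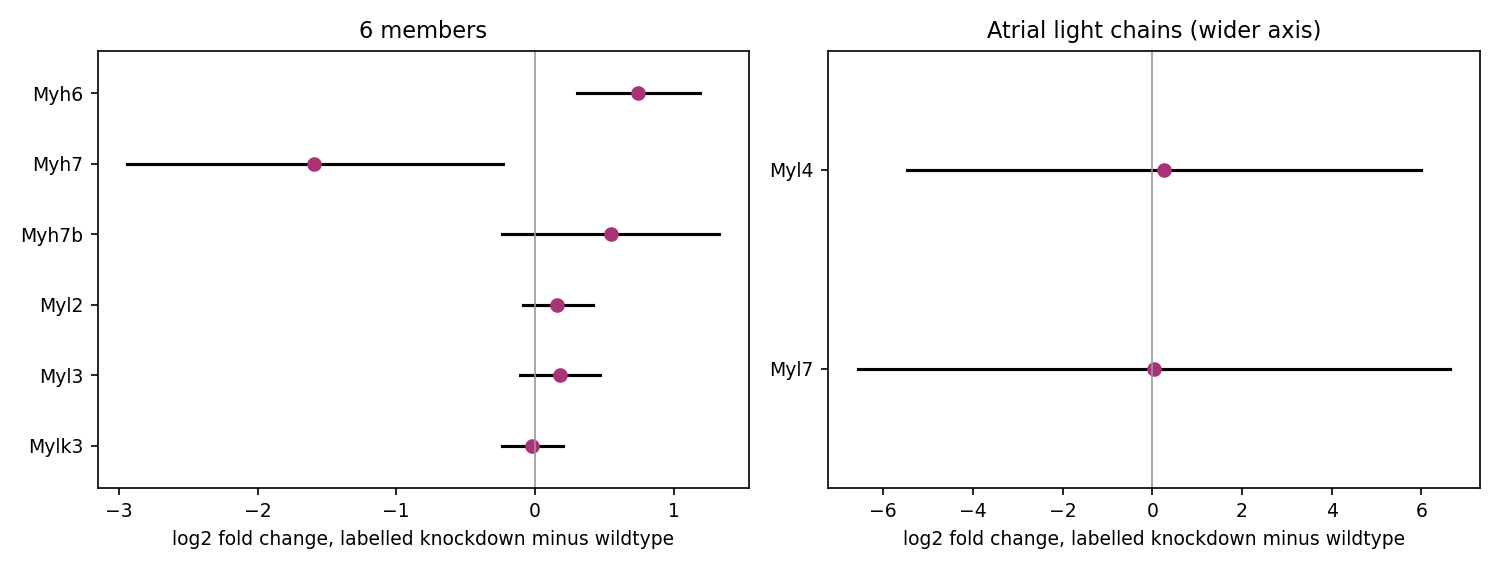
Log2 fold change of each member, labelled Mertk knockdown minus wildtype, as points with 95% confidence intervals from the edgeR fit over all genes. The intervals of Myh6 (0.30 to 1.19) and Myh7 (−2.94 to −0.23) leave out 0, those of the other 4 members on the left include it, and the atrial light chains on the right need an axis reaching past 6 on either side.

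Myh6 was measured in FPKM as deposited, a level corrected for gene length and library size. The lengths used are not given in the sources used here, and every comparison between genes in FPKM rests on them. Wildtype libraries 1 to 4 had 1094, 1276, 1233 and 2236 FPKM, and labelled knockdown libraries 1 to 4 had 2320, 2826, 2342 and 2351 FPKM. Every labelled library was above every wildtype library, but wildtype library 4 came close to the labelled group. In CPM the means were 10820 ± 3530 in wildtype and 18090 ± 1910 in the labelled libraries (SD, n = 4 each). The log2 fold change was 0.74 (SE 0.20, 95% confidence interval 0.30 to 1.19), with an edgeR p of 0.003867 and an adjusted p of 0.1601, short of the threshold. This call turned on the tool and on 1 library. DESeq2 gave the same fold change at an adjusted p of 0.009149, and without wildtype library 4 edgeR gave 1.0 at an adjusted p of 0.02126.

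Myh7 ran the other way. Its levels in wildtype libraries 1 to 4 were 1113, 720.8, 1036 and 491.2 FPKM, and in labelled libraries 1 to 4 they were 213.6, 649.3, 149.6 and 129.8 FPKM. Labelled library 2 was above wildtype library 4, while the other 3 labelled libraries were below every wildtype library. Mean CPM was 8115 ± 3050 in wildtype and 2704 ± 2330 in the labelled libraries (SD, n = 4 each). The log2 fold change was −1.59 (SE 0.58, 95% confidence interval −2.94 to −0.23), with an edgeR p of 0.02733 and an adjusted p of 0.3265. With each library left out in turn, only the fit without labelled library 2 called Myh7 (−2.39, edgeR adjusted p = 0.04659). That library was the only labelled one to overlap wildtype, so leaving it out parts the groups.

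**Figure D3:**
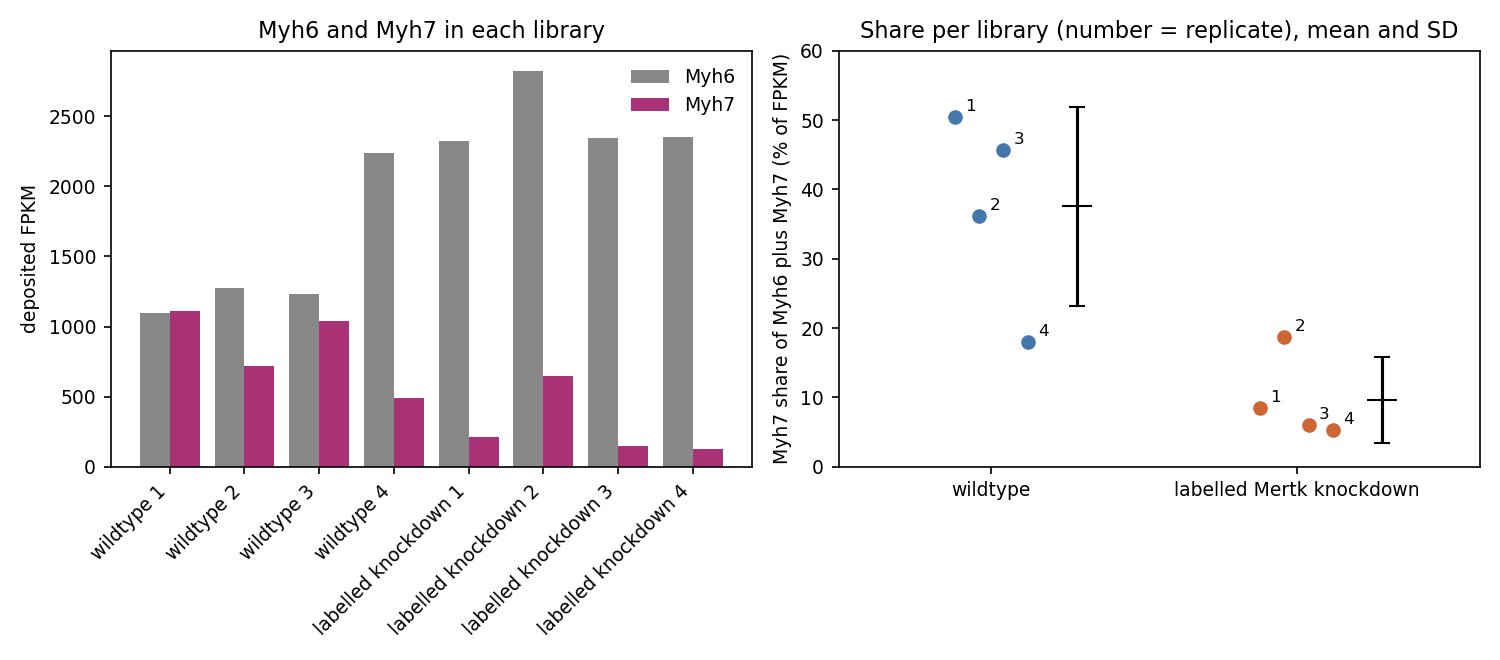
Left, deposited FPKM of Myh6 and Myh7 in each library (bars). Right, the Myh7 share of Myh6 plus Myh7 in percent, with points for libraries, numbers for replicates, and the group mean with its SD. Shares run from 18.01% to 50.43% in wildtype and from 5.231% to 18.69% in the labelled libraries, which overlap through wildtype library 4 and labelled library 2.

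The Myh7 share of Myh6 plus Myh7, taken in FPKM, sets the isoforms against each other inside a library and does not depend on its total. It was 50.43%, 36.1%, 45.67% and 18.01% in wildtype libraries 1 to 4. In labelled libraries 1 to 4 it was 8.43%, 18.69%, 6.004% and 5.231%. In FPKM the beta chain transcript matched the alpha chain transcript in wildtype library 1. Taken in counts, without regard to length, the share was 56.59%, 41.98%, 51.85% and 21.96% in wildtype libraries 1 to 4. Labelled libraries 1 to 4 had 10.55%, 22.74%, 7.563% and 6.605% in counts. By counts Myh7 was above Myh6 in wildtype libraries 1 and 3. The transcripts used here are 6113 bases long for Myh6 and 6135 for Myh7. In wildtype 1, Myh7 had 678313 counts and 1113 FPKM, while Myh6 had 520411 counts and 1094 FPKM. The deposited FPKM thus did not follow these lengths, and the size of the share depends on the scale. On both scales 3 of 4 labelled libraries were below every wildtype library. The mean share in FPKM was 37.55% ± 14.3 in wildtype and 9.588% ± 6.22 in the labelled libraries (SD, n = 4 each), a difference of −27.97 percentage points. An exact permutation test over libraries, two-sided, gave p = 0.05714, where 4 against 4 can reach no p under 0.02857, and 0.1714 after adjustment over the 3 ratio and sum comparisons made. Wildtype library 4 was the only wildtype library to overlap the labelled group. Without it the groups no longer overlapped and the difference was −34.5 points (exact permutation p = 0.02857, the smallest that 3 against 4 can give).

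The sum of Myh6 and Myh7 was 2207, 1997, 2269 and 2728 FPKM in wildtype and 2534, 3475, 2491 and 2481 FPKM in the labelled libraries. The lowest 3 sums were wildtype, and labelled library 2 stood above the rest. Group means were 2300 ± 308 and 2745 ± 487 FPKM (SD, n = 4 each), a difference of 445.2 FPKM with an exact permutation p of 0.1429 (two-sided, adjusted 0.2143). As these are bulk hearts, fewer cells that use a chain and less of its RNA per cell cannot be told apart.

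Markers of cardiomyocytes and of other cell types differed between libraries, and their part in the heavy chain values was not tested. The 9 cardiomyocyte markers (0 called by edgeR) summed to 22200, 23700, 23300 and 26300 CPM in wildtype libraries 1 to 4. Labelled libraries 1 to 4 had 27500, 28300, 27300 and 25700 CPM, so the groups overlapped only through wildtype library 4 and labelled library 4. The 5 endothelial markers summed to 445 to 512 CPM in wildtype and to 551 to 692 CPM in labelled libraries, without overlap and with 0 called by edgeR. Those of macrophages (8 genes, 0 called) summed to 225 to 345 and 199 to 242 CPM, which overlap. Hepatocyte transcripts were high in the whole labelled group and in wildtype library 1, and atrial ones in libraries of both groups. Within the 5 libraries with hepatocyte transcripts, where wildtype library 1 stands alone and is assumed to vary like the labelled group, the log2 fold change of Myh6 was 1.15 (edgeR adjusted p = 0.05856) and that of Myh7 was −1.97 (adjusted p = 0.6999). There the share differed by −40.8 points (exact permutation p = 0.2, the smallest that 1 against 4 can give). In the 5 libraries without atrial transcripts of Sln, Bmp10 and Mybphl above trace level, Myh6 had 1.09 (SE 0.19, adjusted p = 0.194 by edgeR) and Myh7 had −1.43 (SE 0.66, adjusted p = 0.7584). Among those the share differed by −32.2 points (exact permutation p = 0.1, the smallest that 2 against 3 can give). For Myh6 the choice of libraries could not turn the direction, since its groups do not overlap. Wildtype library 1, alone in the first split, has the lowest Myh6 in FPKM and the highest Myh7 share of all libraries.

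Promoter windows of the heavy chain genes are shown because the transcripts ran in opposite directions across the libraries. They hold bases before a RefSeq start site, on the reverse strand of GRCm38.p6 and outside the deposited gene row, 5′ to 3′. Capitals mark the core of the M-CAT element, CATTCC or its reverse complement GGAATG, which TEAD factors bind.
Myh6 (chr14:54966642-54966857): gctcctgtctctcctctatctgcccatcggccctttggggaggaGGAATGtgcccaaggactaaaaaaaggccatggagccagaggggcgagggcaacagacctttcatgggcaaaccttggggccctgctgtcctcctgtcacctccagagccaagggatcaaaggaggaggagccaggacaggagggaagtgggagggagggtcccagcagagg
Myh7 (chr14:54994627-54994876): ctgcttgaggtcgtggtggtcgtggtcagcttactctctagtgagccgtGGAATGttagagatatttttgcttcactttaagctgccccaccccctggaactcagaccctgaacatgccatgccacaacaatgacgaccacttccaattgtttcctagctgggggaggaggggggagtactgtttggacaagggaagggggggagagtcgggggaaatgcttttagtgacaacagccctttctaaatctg
In Myh6 the match began 206 bases before the start site and in Myh7 201 bases before it, both as GGAATG. At the other RefSeq start of Myh7, 54994549, the window held no match. Searched on both strands, 12.6% of 32851 promoter windows of 250 bases held these letters, 22.6% held GATAA or TTATC, to which GATA factors bind, and 14% held AGGTCA or TGACCT, a nuclear receptor half-site. Neither of the last motifs was in the Myh6 or Myh7 windows shown. A match is a description of letters and does not show binding.

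Mhrt, a long noncoding RNA known to act against pathological hypertrophy, had 5.9, 9.53, 12.8 and 19.1 CPM in wildtype libraries 1 to 4. Labelled libraries 1 to 4 had 19.6, 12.2, 25.4 and 24.9 CPM. The 4 libraries with the least Mhrt, wildtype 1, 2 and 3 and labelled 2, were also the 4 with the most Myh7. Group means were 11.82 ± 5.59 and 20.52 ± 6.13 CPM (SD, n = 4 each), a log2 fold change of 0.79 (SE 0.36, 95% confidence interval −0.03 to 1.62, edgeR adjusted p = 0.4233). Mhrt overlaps exons of Myh7 on the other strand. The kit marks strand, but whether the counting used it was not given in the sources used here.

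The Mir208b row (ENSMUSG00000077928, chr14:54975700-54975776) lies inside its Myh7 intron. It held 10, 28, 30 and 76 counts in wildtype and 83, 41, 68 and 86 counts in the labelled libraries. Its 4 lowest libraries were again wildtype 1, 2 and 3 and labelled 2, those with the most Myh7. In CPM the log2 fold change was 0.97 (SE 0.51, 95% confidence interval −0.17 to 2.11, edgeR adjusted p = 0.494). Gm31251, annotated as antisense inside Myh7 and chosen after its values were seen, had 2.48, 6.23, 4.94 and 9.86 CPM in wildtype and 12.5, 6.9, 13.8 and 11.3 CPM in the labelled libraries (log2 fold change 0.92 with SE 0.38, adjusted p = 0.3714 by edgeR). Mir208a had 2 to 9 counts in every library and Mir499 had 0 to 2, and neither was tested.

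**Figure D4:**
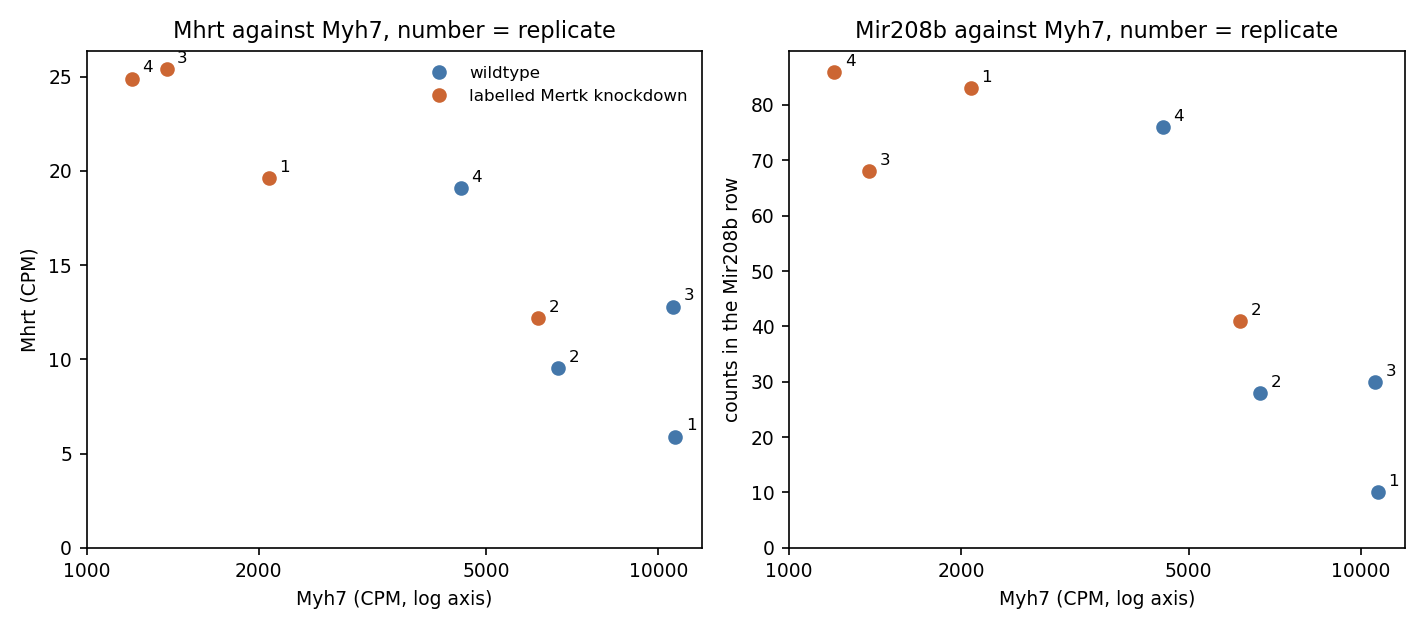
Mhrt in CPM (left) and counts in the Mir208b row (right) against Myh7 in CPM on a log axis, with points for the 8 libraries, colours for the groups and numbers for the replicates. Wildtype libraries 1, 2 and 3 and labelled library 2 sit at the lower right, with Myh7 at 6160 CPM or more and Mhrt at 12.8 CPM or less.

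Myh7b (ENSMUSG00000074652, chr2:155611212-155634307, forward strand, 42 exons) encodes a slow-type heavy chain and hosts Mir499. Its levels were 13.35, 5.341, 13 and 6.894 FPKM in wildtype libraries 1 to 4. In labelled libraries 1 to 4 they were 15.65, 18.32, 13.55 and 10.31 FPKM. The groups overlapped, and wildtype libraries 2 and 4 were lowest. The transcript made up 0.2521% to 0.614% of the heavy chain transcripts of a library. Its log2 fold change was 0.55 (SE 0.34, 95% confidence interval −0.24 to 1.33, edgeR adjusted p = 0.5802), so a difference of either sign was within the error.

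Myl2 (ENSMUSG00000013936, chr5:122100951-122113472, forward strand, 6 exons), the ventricular regulatory light chain, was among the steadiest members. Wildtype libraries 1 to 4 had 1803, 1724, 2071 and 2177 FPKM and labelled libraries 1 to 4 had 2085, 2190, 2381 and 2197 FPKM. The ranges overlapped, with wildtype libraries 1 and 2 below all others. Mean CPM was 4210 ± 541 in wildtype and 4716 ± 178 in the labelled libraries (SD, n = 4 each). The log2 fold change was 0.16 (SE 0.11, 95% confidence interval −0.09 to 0.42, edgeR adjusted p = 0.6198).

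Myl3 (ENSMUSG00000059741, chr9:110741861-110769798, forward strand, 7 exons), the ventricular essential light chain, had 1514, 1216, 1280 and 1731 FPKM in wildtype. The labelled group had 1503, 1724, 1858 and 1492 FPKM. These ranges overlapped as well, and the log2 fold change was 0.18 (SE 0.13, 95% confidence interval −0.11 to 0.47, edgeR adjusted p = 0.647). Since each heavy chain takes 1 light chain of either kind, the ratio of the transcripts was also taken. Myl3 stood to Myl2 at 0.7396 ± 0.0983 in wildtype and 0.7418 ± 0.0514 in the labelled libraries (SD, n = 4 each; exact permutation p = 0.9429, two-sided, adjusted 0.9429). Single libraries ran from 0.6183 to 0.8397, both wildtype.

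By mean FPKM the wildtype order was Myl2 (1944 ± 215), Myh6 (1460 ± 524), Myl3 (1435 ± 235) and Myh7 (840.3 ± 288). The ranges of Myl2 and Myh6 overlapped there, as did those of Myh6 and Myl3, while Myh7 lay below Myl3 in every library. For the labelled group the order was Myh6 (2460 ± 244), Myl2 (2213 ± 123), Myl3 (1644 ± 178) and Myh7 (285.6 ± 245, SD, n = 4 for all). Myh6 and Myl2 overlapped, Myl3 lay below both, and Myh7 lay below Myl3. Myh6 and Myl2 therefore changed places in the FPKM order, though in each group their ranges overlapped. In CPM, without regard to length, Myh6 was above Myl2 in both groups (10820 against 4210 in wildtype, 18090 against 4716 in the labelled libraries). The order between genes thus depends on the lengths behind the deposited FPKM, which are not given in the sources used here. Mylk3 and then Myh7b came last among these 6 in both groups.

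Myl7 (ENSMUSG00000020469, chr11:5896637-5898782, reverse strand, 7 exons), the atrial regulatory light chain, was near 0 or high and seldom between. Wildtype libraries 1 to 4 held 0, 0.9401, 191.7 and 91.5 FPKM. Labelled libraries 1 to 4 held 0.3129, 0, 0 and 311.2 FPKM. The 3 high libraries were wildtype 3, wildtype 4 and labelled 4. In counts the others had 0, 40, 14, 0 and 0, and a count of 0 allows up to 3 counts, which is 0.0455, 0.0442 and 0.0473 CPM in wildtype 1, labelled 2 and labelled 3 (counting error only). The log2 fold change was 0.04 (SE 2.74, 95% confidence interval −6.56 to 6.64, edgeR adjusted p = 0.9974), an interval so wide that the groups cannot be compared for this gene.

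Myl4 (ENSMUSG00000061086, chr11:104550663-104595753, forward strand, 9 exons), the atrial essential light chain, was high in the same 3 libraries. It had 0.197, 0.5878, 30.48 and 22.44 FPKM in wildtype and 0.2118, 0.1565, 0.1792 and 67.16 FPKM in the labelled libraries. Its log2 fold change was 0.26 (SE 2.38, 95% confidence interval −5.46 to 5.98, edgeR adjusted p = 0.9825). Without labelled library 4 the fold changes were −6.2 for Myl4 and −9.35 for Myl7, and they were also below 0 without wildtype library 1 or 2, so the sign of both rests on single libraries.

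As a share of the 4 light chain transcripts in FPKM, Myl4 plus Myl7 made up 0.005938%, 0.05194%, 6.218% and 2.833% in wildtype libraries 1 to 4. In labelled libraries 1 to 4 the share was 0.01462%, 0.003999%, 0.004227% and 9.301%. Myl7 was 8.473%, 4.033% and 12.41% of Myl2 plus Myl7 in wildtype 3, wildtype 4 and labelled 4, where Myl4 was 2.325%, 1.28% and 4.307% of Myl3 plus Myl4. Taken in counts, without regard to length, the order of the pairs turned: Myl7 was 2.725%, 1.256% and 4.109% of its pair and Myl4 was 5.125%, 2.858% and 9.266%. Which pair was the more atrial thus depends on the scale, while the same 3 libraries were high on both. In wildtype 3, Myl4 had 9666 counts and 30.48 FPKM, while Myl7 had 7734 counts and 191.7 FPKM. The transcripts used here are 879 and 590 bases long, so the deposited FPKM did not follow these lengths.

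**Figure D5:**
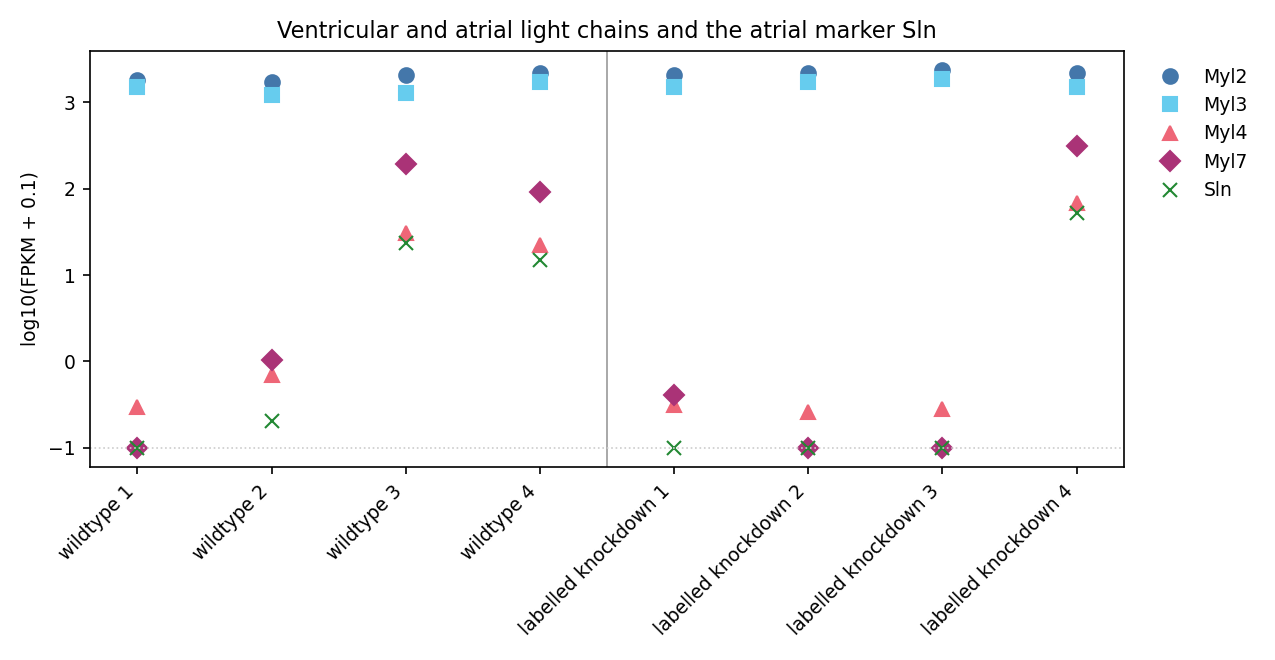
Ventricular light chains (Myl2, Myl3), atrial light chains (Myl4, Myl7) and the atrial marker Sln in each library, as log10 of FPKM plus 0.1, so that 0 FPKM sits on the dotted line. Myl2 and Myl3 stay level, while Myl4, Myl7 and Sln stand high together in wildtype 3, wildtype 4 and labelled 4.

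Among the 10 atrial markers listed, Sln and Mybphl marked the same libraries. Sln, the atrial regulator of the calcium pump, had 36.3, 20.9 and 74.0 CPM in wildtype 3, wildtype 4 and labelled 4, and 0 to 0.151 CPM in the remaining 5. Mybphl, a myosin-binding protein enriched in the atria, had 21.9, 14.9 and 45 CPM there and 0 to 0.172 CPM elsewhere. Bmp10, a growth factor of the right atrium, was at 0.972 and 11.9 CPM in wildtype 3 and 4 and at 0 in labelled 4. The whole list of 10 atrial markers, some of which the ventricle also expresses, had 8 tested and 0 called. It summed to 196 to 368 CPM in wildtype against 123 to 327 CPM in the labelled libraries. By that sum wildtype 3 (368 CPM) and labelled 4 (327 CPM) were highest, but wildtype 4 (256 CPM) was level with wildtype 1 (258 CPM). The whole list thus did not mark the same libraries. Without wildtype 3, wildtype 4 and labelled 4 the log2 fold changes were −1.06 for Myl4 and −2.06 for Myl7, and neither was called by edgeR. What tissue was sampled for each library is not stated beyond the heart, and its part in these values was not tested.

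The Myl7 promoter is shown because its transcript tells these 3 libraries from the rest.
Myl7 (chr11:5898783-5899032): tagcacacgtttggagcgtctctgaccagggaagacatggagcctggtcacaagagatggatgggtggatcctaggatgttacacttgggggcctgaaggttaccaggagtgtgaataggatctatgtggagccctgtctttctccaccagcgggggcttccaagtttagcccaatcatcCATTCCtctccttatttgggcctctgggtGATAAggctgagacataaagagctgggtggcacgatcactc
This window, before the RefSeq start on the reverse strand, held CATTCC 70 bases and GATAA 41 bases before the start, both in capitals. The Myl4 window of the same length held none of the 3 motifs searched.

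Mylk3 (ENSMUSG00000031698, chr8:85324303-85386345, reverse strand, 13 exons), the kinase, had 112.9, 105.3, 96.13 and 119.3 FPKM in wildtype libraries 1 to 4. Labelled libraries 1 to 4 had 97.66, 118.8, 109.5 and 107.0 FPKM. The labelled range lay inside the wildtype range. Means were 513.9 ± 32.1 and 506.6 ± 37.7 CPM (SD, n = 4 each), and the log2 fold change was −0.02 (SE 0.10, 95% confidence interval −0.24 to 0.20, edgeR adjusted p = 0.9603).

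Other genes of the pathway were taken from 7 fixed lists of 88 genes in all, and 1 of them was called by edgeR. Among regulators of the myosin genes (28 of 30 tested, 17 above 0, 10 below, median log2 fold change 0.08), 1 fell. That gene was Hand2, a transcription factor of ventricular development, which had 63.07 ± 4.38 CPM in wildtype against 33.83 ± 2.23 CPM in labelled libraries (SD, n = 4 each; log2 fold change −0.90 with SE 0.09, adjusted p = 0.001989 by edgeR). The groups did not overlap, against 3.9% of all tested genes that were lower without overlap. Hand2 had −0.95 within the libraries with hepatocyte transcripts (edgeR adjusted p = 0.04866), and −0.85 at an adjusted p of 0.1782 in those without atrial transcripts.

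In the thick filament list, 12 of 14 genes were tested and 0 were called (median log2 fold change 0.03). Trim63, a ubiquitin ligase that targets myosin heavy chains, had 119.9 ± 13.7 and 153.8 ± 9.27 CPM in wildtype and labelled libraries without overlap (SD, n = 4 each; log2 fold change 0.36 with SE 0.10, adjusted p = 0.1864 by edgeR). Over all tested genes 4.18% were higher without overlap. Myom2, an M-band protein that ties thick filaments together, had −0.57 (SE 0.18, adjusted p = 0.2227 by edgeR). Of the other striated muscle myosins 6 of 13 were tested and 0 called (median −0.11). Myh8, the perinatal heavy chain, had 0.7753 ± 0.532 and 0.05278 ± 0.106 CPM (SD, n = 4 each), low in every library (log2 fold change −3.83 with SE 1.21, adjusted p = 0.2261 by edgeR), and the kinase gene Mylk4 had 0.48 (adjusted p = 0.5587).

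Nonmuscle and smooth muscle myosins (9 of 9 tested, median log2 fold change −0.13), the light chain phosphatase (7 of 7, median 0.07) and myosin folding and assembly factors (9 of 9, median 0.12) had 0 called members each. The genes with the smallest p were the nonmuscle heavy chains Myh10 (−0.30, edgeR adjusted p = 0.3463) and Myh14 (−0.37, 0.418). In the phosphatase list they were the inhibitor subunits Ppp1r14c (0.34, edgeR adjusted p = 0.4495) and Ppp1r14a (0.74, 0.4757). Among assembly factors they were the small heat shock protein gene Hspb7 (−0.24, edgeR adjusted p = 0.4614) and the myosin chaperone gene Unc45b (0.28, 0.5527). Of the locus RNA list, 4 of 6 were in the table and 2 were tested, Mhrt and Mir208b, with 0 called and a median of 0.88.

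Genes whose log2 CPM ran most like a member over the 8 libraries were ranked among 9598 genes that averaged 5 CPM or more. All points share the library and the group difference, so these correlations are descriptions. For Myh6 the first 5 were Fndc5 (Pearson r 0.96), Dlst (0.959), Pdhb (0.955), Pmpcb (0.952) and Hcn2 (0.951). DLST and PDHB are subunits of mitochondrial dehydrogenase complexes, and PMPCB is part of the protease that processes imported mitochondrial proteins. Trappc12 (0.972), Eif4ebp1 (0.965), Otub2 (0.962) and Scarb2 (0.957) were among the genes most like Myh7. Sln (0.983), Slirp (0.955), Gng2 (0.934), Mybphl (0.931) and Zup1 (0.926) were most like Myl7, and Myl4, as a member left out of the ranking, had 0.985 with it.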

How the data were processed

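Poly(A) RNA was read as paired ends of 150 bases from stranded (dUTP) libraries, per the labels' protocols. The deposited table gives whole-number read counts and FPKM per gene and library, per the file headers. The submitters' processing notes name cutadapt 1.9, HISAT2 2.2.1, StringTie 2.1.6, DESeq2, edgeR and build mm10, with no role or order. Whether counting used strand, and the annotation release, are not given in the sources used here. All value columns matched a library (0 did not), and 0 rows lacked a gene name.

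The deposited counts of all genes were tested with edgeR 4.0.16 (TMM, filterByExpr, glmQLFit with robust = TRUE, two-sided glmQLFTest, no covariate) in R 4.3.3. Calls used a Benjamini-Hochberg adjusted p under 0.05 over all 17787 genes tested, and the SE is the size of the log2 fold change divided by the square root of F. Ratios between genes used the deposited FPKM, with exact permutation tests over 70 splits, and an exact sign-flip test where libraries were paired by number. Chi-square per degree of freedom between libraries of a group was 37.89 to 198.69 over genes, more than counting error alone would give. This does not show whether the libraries came from separate mice. The labels tie nothing to a replicate number, so the samples were not treated as paired in the main fit. Same-numbered libraries deviated together with correlations of −0.006 to 0.181. No value for libraries of different numbers is given beside these, so they do not settle whether the samples were paired. Alternatives were DESeq2 1.42.0, limma 3.58.1, other scalings and filters, covariates, and left-out libraries. Limma was run on log2(FPKM + 1) with and without a minimum mean of 1 FPKM, and on log2(FPKM + 0.1) only with it. A planned split by the sum of 10 atrial markers left 1 library apart and could not be fitted, so a split by Sln, Bmp10 and Mybphl, chosen after seeing the data, was used. The scripts were tested on simulated data.

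Named genes are the members, Mertk, the 5 genes most like Myh6, Myh7 and Myl7, and from each pathway list the called genes or else the 2 with the smallest p. Of the genes this rule names, 1 is not reported here. The members and lists were chosen with earlier results of these data known. RefSeq sequences (GRCm38.p6) were matched by symbol, with promoters for all 8 members, and coding sequences came from GENCODE M21. Python 3.11.15 with pandas 2.3.3, numpy 2.4.6, biopython 1.88 and matplotlib 3.10.9 was used.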

Additional observations from a re-analysis of the deposited data

Results flagged for a closer look

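Labelled knockdown library 4 stood far from the other 3 of its group in the atrial light chains. Myl4 was at 334 CPM there against 0.816 to 1.13 CPM in the others, and Myl7 was at 197 CPM against 0 to 0.211 CPM. The atrial share of light chain transcripts was 9.3% against 0.004% to 0.0146%. In each of the 3 cases the gap to the nearest library was 0.999 of the range of the group, above the critical value of Dixon's test for 4 samples. In all, 20 groups of values were looked at, and chance flags about 1 in 20. The 3 flagged values are of the same library and the same transcripts, so they are not independent.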

How the results depend on the processing

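The number of members called by edgeR was 0, and it was 1 by DESeq2 (Myh6), 1 without wildtype library 4 (Myh6), 1 without labelled library 2 (Myh7) and 0 under the other 19 alternatives. Myh6 stayed between 0.63 and 1.15 (log2) and Myh7 between −2.39 and −1.33 over 22 alternatives each. With the replicate block, edgeR called 24 genes against 115, and gave an adjusted p of 0.2503 for Myh6 and 0.3000 for Myh7. Taken by replicate number, the share was lower in the labelled library in all 4 pairs, with a mean difference of −28.0 points. A two-sided exact sign-flip test of these differences gave p = 0.125, the smallest that 4 pairs can give. Leaving out 1 library at a time gave share differences from −34.5 to −23.7 points (exact permutation p = 0.02857 to 0.08571) and, over all genes, 44 to 265 calls. The smallest of these p-values came without wildtype library 4, the only wildtype library whose share overlapped the labelled group. DESeq2 called 583 genes, and the libraries without atrial transcripts gave 6 calls.

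Myl4 and Myl7, never called, turned negative under 10 alternatives each. For Myl4 these were −0.91 by limma with a pseudocount of 1 FPKM (with or without the filter), −1.64 with 0.1, −1.31 with the replicate block, −1.06 without the atrial libraries, −0.05 with the summed atrial list and −0.71 with Sln, Bmp10 and Mybphl as a covariate. For Myl7 they were −1.6, −2.62, −1.98, −2.06, −1.8 and −1.14 in the same order. Leaving out 1 library gave −6.2 (labelled 4) to 1.14 (wildtype 3) for Myl4 and −9.35 to 1.35 for Myl7, again labelled 4 and wildtype 3, with negative values also without wildtype 1 or 2. Mylk3 moved from −0.02 to 0.01 without the atrial libraries, without wildtype 4 or without labelled 1, and to 0.0 without wildtype 1. Its lowest value was −0.07 with 1 library left out (labelled 2) and −0.08 over all alternatives. The cause was not tested. Myl7 had 0 counts in wildtype 1, the only wildtype library with hepatocyte transcripts, so its fitted value there is no estimate. Depth limits the rows of Mir208a and Mir499, which hold under 10 counts.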
